A study of Mus musculus with 6 samples.

Results

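The hearts described here are the wild-type controls of a study of Kdm4a (also called Jmjd2a), a gene for an enzyme that removes methyl groups from histone H3. They were chosen by the array titles, and 3 of the 6 arrays of the series carry a wild-type title. The general wild type (1 array) was the control of a heart with a general Kdm4a knockout. The heart-specific wild types (2 arrays, 1 female and 1 male) were the controls of hearts in which Kdm4a was knocked out in the heart only. The other 3 arrays are the general knockout (1 array) and the heart-specific knockouts (1 female and 1 male), which appear below only where they place a control value. All 6 samples were adult mouse hearts without a stated treatment, and total RNA was hybridised to Illumina bead arrays in 1 colour. The sex of the general pair, the strains, the alleles, any Cre driver, the age beyond adult, the chambers taken and any pooling of animals are given by none of the sources used here. Because the general line has 1 control, line, animal and array cannot be told apart, and any p-value below measures only the spread between these samples.

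Heart muscle contracts continuously and makes its ATP mostly by oxidising fatty acids, so sarcomere and mitochondrial transcripts dominate its RNA. Ventricles and atria use different myosin light chains, and the atria store natriuretic peptides. Under load or injury the ventricle also turns on natriuretic peptides, skeletal-type actin and muscle stress proteins, a set often called the fetal or hypertrophic programme. Blood left in the tissue adds transcripts of red cells, platelets and white cells.

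Values are the deposited intensities, in arbitrary units on a linear scale, and ran from 82.5 to 50962. Background was taken as the 95th percentile of 1526 probes for olfactory, vomeronasal and trace amine receptors, which gave 121 to 124 units per array. Between 40.4% and 43.4% of the 45281 probes lay above it on the 3 controls. A gene was kept when a probe of it was above background on at least 1 control, and its brightest probe stood for it, which left 12160 genes. Precision is limited by the number of arrays. Kdm4a itself had 115 units in the general wild type, against 119 in the female and 123 in the male heart-specific wild type, at or near background, so its probe cannot check the labels.

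The brightest signals of the control hearts came from the contractile and mitochondrial machinery. Of the 20 genes with the highest mean intensity, 7 belonged to a list of oxidative phosphorylation genes, 5 to a list of adult sarcomere genes and 2 to fatty acid uptake and oxidation, and 2 more, CYTB and ND4, are encoded in the mitochondrial genome. Tnnc1, cardiac troponin C, had 50962 units in the general wild type and 50962 and 46332 in the female and male heart-specific wild types. Myl3 and Myl2 encode the ventricular essential and regulatory myosin light chains. Myl3 had 43509 units in the general control, against 43993 in the female and 50079 in the male control of the heart-specific line. Myl2 had 34808 units in the general wild type, against 43137 in the female and 43137 in the male heart-specific wild type. Myh6, the main myosin heavy chain of the adult mouse heart, had 36105 units in the general wild type and 38156 and 43993 in the female and male heart-specific wild types. Ventricular sarcomere genes thus were among the brightest on all 3 arrays, which matches the labelled tissue.

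The mitochondrial genes were as bright. Atp5b, a catalytic subunit of ATP synthase, had 48286 units in the general control, against 50079 in the female and 48286 in the male control of the heart-specific line. Cox6a2, a heart and muscle subunit of cytochrome oxidase, had 47404 units in the general wild type, against 42292 in the female and 43509 in the male heart-specific wild type. Lpl, the lipase that frees fatty acids from circulating lipoproteins, had 50079 units in the general wild type and 49016 and 45883 in the female and male heart-specific wild types. The remaining genes of the 20 were Atp5g3, Mb (myoglobin), Fth1 (ferritin), Atp2a2 (the sarcoplasmic calcium pump), Fabp3 (a fatty acid carrier), Atp5j2, Cox7a1, Cox5a, Chchd10, Cox4i1 and Actc1 (cardiac actin). Among these 20 genes the largest difference of the general wild type from either heart-specific wild type was 0.42 on the log2 scale. Probe brightness depends on the probe as well as the transcript, so the order among genes is one of signal and not of molecules, and values near the ceiling are compressed.

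**Figure D1:**
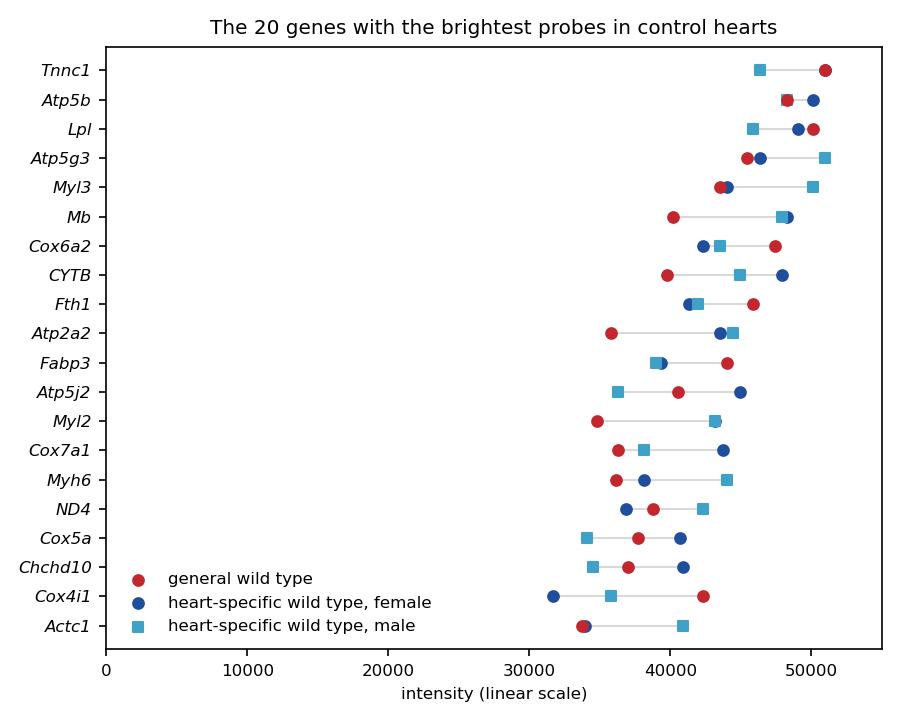
Intensity (linear scale, arbitrary units) of the 20 genes with the highest mean over the 3 control arrays, with 1 point per array and a grey line from the lowest to the highest control. All points lie at or above 31652 units, with differences of at most 0.42 on the log2 scale between the general and either heart-specific wild type.

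Among the 50 brightest genes, 16 were oxidative phosphorylation genes, 7 sarcomere genes, 5 cytosolic ribosomal protein genes and 3 red cell genes. Of these 50, 45 were also among the 50 brightest on the general array, 46 on the female and 45 on the male heart-specific array. The largest difference of the general wild type from either heart-specific wild type among them was 0.82 on the log2 scale. Within the 100 brightest, Nppa (atrial natriuretic peptide) was the only gene at least 2-fold from both heart-specific wild types.

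Over all 12160 genes the general wild type stood a little further from the heart-specific wild types than those stood from each other. At least 2-fold differences were found at 205 genes (1.69%) between the general and the female control and at 302 (2.48%) between the general and the male control, against 157 (1.29%) between the female and the male control. The root mean square of the log2 differences was 0.36, 0.39 and 0.34 in the same order. The female to male comparison is the only measure here of how far controls of the same line differ, and it includes a sex difference.

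A gene was called when the general wild type was at least 2-fold from each of the heart-specific wild types in the same direction. By this rule 74 genes were higher (0.609%) and 30 lower (0.247%) in the general wild type. Several kept probes were present at 25 of the genes called higher and 15 of those called lower. All probes shared the direction at 22 and 12 of these, but all met the 2-fold rule at only 5 and 2. Of the genes named below, 1 of 2 probes met the rule at Fgfr1op2, Tubb1, Ccl12, Tnc, Dkk3, Inmt, Spon2, Notch4, Whrn and Wdfy1. At Mcf2l and Tsc22d3 1 of 3 probes met it, and at Fhl1 and Nmrk2 2 of 3. At any size, 30.8% of genes were above both heart-specific wild types and 37% below both, and the median log2 difference over all genes was -0.02. A gene above background on the general array alone had to be higher there, which holds for 636 of the 12160 genes and 9 of the 74 called higher, so a tally of such genes is a description only. At most of the genes called higher the general knockout did not share the difference. The general wild type was the highest of all 6 arrays at 72 of the 74 genes, and the general knockout lay within 2-fold of both heart-specific wild types at 52 of them. Among the 30 genes called lower, the general wild type was the lowest of the 6 arrays at 27, and the general knockout lay within 2-fold of both heart-specific wild types at 18. The rule picks genes that are extreme on 1 unreplicated array, so these tallies follow in part from the choice. No other array was put through the same rule for comparison.

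**Figure D2:**
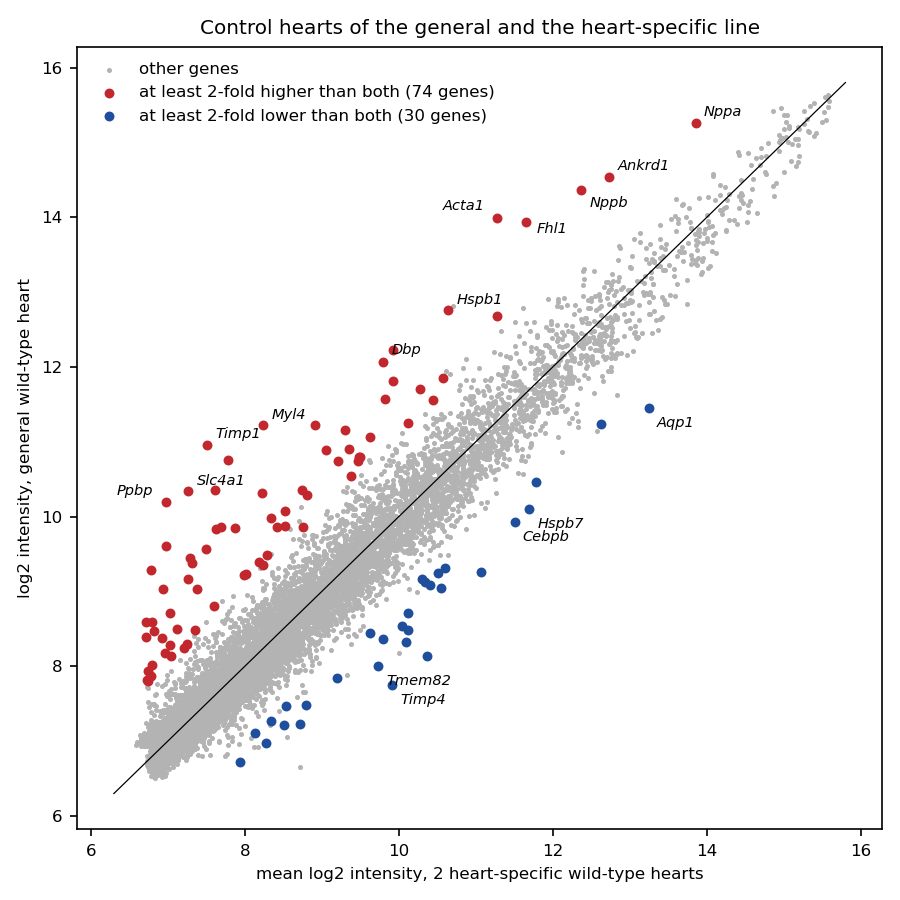
Log2 intensity of the general wild-type heart (y axis) against the mean log2 intensity of the 2 heart-specific wild-type hearts (x axis), 1 point per gene, with the line of equal values. The 74 genes at least 2-fold higher than both heart-specific controls lie above the line and include Nppa, Ankrd1, Nppb and Fhl1 near the bright end, and the 30 genes at least 2-fold lower, including Timp4, lie below it.

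A limma fit on the 3 arrays was run beside this description. It has 1 residual degree of freedom, from the female and male controls, and assumes that the lone general control varies like them. It also draws each gene's variance toward a value pooled over all genes, with a weight of 6.8 degrees of freedom. The p-values thus rest more on that pooled value than on the gene's own spread. It called 38 genes (0.312%) at a Benjamini-Hochberg adjusted p under 0.05, 34 higher (0.28%) and 4 lower (0.0329%), and all 38 were among the genes called by fold. These calls depend on the set of genes tested: it called 5 with a filter of 2 of 6 arrays above background and 0 without a filter, where limma had 1313 genes at an unadjusted p under 0.05 and a smallest adjusted p of 0.154. Adjusted p-values below are from the fit on 12160 genes, and each ± is the SD of the differences from the 2 heart-specific wild types.

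Several load-responsive heart muscle genes were called higher. Of 19 genes listed as hypertrophy and fetal genes, 15 were measured. Of these, 7 were called higher and 0 lower, beside 0.609% and 0.247% of all genes. In the list 12 were above both heart-specific wild types and 1 below, beside 30.8% and 37% of all genes. None was kept through the general array alone. Their median log2 difference was 1.41, beside -0.02 over all genes, and 0.75 over the 17 members with a probe when no filter was set. The list's summed intensity was 163746 in the general wild type, against 77111 and 77108 in the female and male heart-specific wild types. The general knockout, at 82366, was close to the heart-specific wild types.

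Nppb, the gene of the ventricular natriuretic peptide BNP, had 21067 units in the general control, against 5633 in the female and 4992 in the male control of the heart-specific line. The general array was far above the others, with a log2 difference of 1.99 ± 0.12 and an adjusted p of 0.0145 by limma. The general knockout had 10141 units of Nppb and so lay between the general and the heart-specific wild types. Nppa, the neighbour of Nppb, encodes atrial natriuretic peptide. It had 39341 units in the general wild type, against 12345 in the female and 17782 in the male heart-specific wild type. Its log2 difference of 1.41 ± 0.37 did not pass limma (adjusted p = 0.123), and the knockout hearts lay between the control values, at 18997 in the general knockout and 21562 and 25410.4 in the female and male heart-specific knockouts.

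Acta1, skeletal alpha-actin, had 16279 units in the general wild type and 1398 and 4363 in the female and male heart-specific wild types. The heart-specific wild types themselves differed at this gene, and the log2 difference of 2.72 ± 1.16 did not pass limma (adjusted p = 0.15). Ankrd1, the cardiac ankyrin repeat protein, had 23874 units in the general control, against 5375 in the female and 8621 in the male control of the heart-specific line, a log2 difference of 1.81 ± 0.48 (limma adjusted p = 0.0712). Both of its probes were at least 2-fold higher than both heart-specific wild types. Ankrd2, its relative in stretched muscle, had 386 units in the general wild type, against 102 in the female and 121 in the male heart-specific wild type, above background on 1 of the 2 heart-specific arrays (limma adjusted p = 0.0227). The general wild type was the highest of the 3 controls at each of these genes.

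Fhl1, a LIM-domain protein of the sarcomere, had 15637 units in the general wild type and 2920.2 and 3548 in the female and male heart-specific wild types. That is 4.86-fold of the mean of the heart-specific wild types (log2 difference 2.28 ± 0.20, limma adjusted p = 0.0115), while the general knockout had 3347 units. Timp1, a secreted inhibitor of matrix metalloproteinases, had 1995 units in the general control, against 188 in the female and 176 in the male control of the heart-specific line. It showed the smallest adjusted p of all genes (0.0032 by limma) with a log2 difference of 3.45 ± 0.069, and both of its probes were at least 2-fold higher. The general knockout had 182 units of Timp1, and all 5 other arrays of the series lay at or below 188 units.

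Not every member of the programme stood apart. Myh7, the slow myosin heavy chain, had 348 units in the general wild type, against 234 in the female and 283 in the male heart-specific wild type, a log2 difference of 0.43 ± 0.20 (limma adjusted p = 0.777). Acta2, smooth muscle actin, had 12110.4 units in the general wild type and 13313 and 16946 in the female and male heart-specific wild types. Xirp2, a sarcomere remodelling protein, had 7208 units in the general control, against 3844 in the female and 719.7 in the male control of the heart-specific line, with the male control far below the others.

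The promoters of the 4 bright stress genes are shown because these genes were high together on the general array. Each is the 250 bases before the gene's start in RefSeq (GRCm38.p6), 5′ to 3′ on the gene's strand, for Nppa at chr4:148000472-148000721 (plus strand), Nppb at chr4:147985650-147985899 (plus strand), Acta1 at chr8:123894776-123895025 (minus strand) and Ankrd1 at chr19:36119845-36120094 (minus strand). Capitals mark the hexamer CATTCC or its reverse complement GGAATG, the core of the MCAT element that TEAD factors bind in muscle genes.
Nppa: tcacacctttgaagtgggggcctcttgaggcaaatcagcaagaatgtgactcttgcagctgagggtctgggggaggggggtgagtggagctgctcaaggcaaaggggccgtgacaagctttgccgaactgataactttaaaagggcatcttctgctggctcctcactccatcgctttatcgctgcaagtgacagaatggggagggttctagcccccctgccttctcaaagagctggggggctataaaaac
Nppb: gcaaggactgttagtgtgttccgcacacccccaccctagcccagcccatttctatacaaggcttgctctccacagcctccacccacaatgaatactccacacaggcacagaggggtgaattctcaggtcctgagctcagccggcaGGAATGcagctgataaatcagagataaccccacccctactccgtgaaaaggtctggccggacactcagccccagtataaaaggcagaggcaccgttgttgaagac
Acta1: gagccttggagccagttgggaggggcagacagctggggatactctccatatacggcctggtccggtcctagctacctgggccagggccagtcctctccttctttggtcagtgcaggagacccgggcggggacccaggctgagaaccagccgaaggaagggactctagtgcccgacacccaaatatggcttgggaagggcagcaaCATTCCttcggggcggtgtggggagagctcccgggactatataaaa
Ankrd1: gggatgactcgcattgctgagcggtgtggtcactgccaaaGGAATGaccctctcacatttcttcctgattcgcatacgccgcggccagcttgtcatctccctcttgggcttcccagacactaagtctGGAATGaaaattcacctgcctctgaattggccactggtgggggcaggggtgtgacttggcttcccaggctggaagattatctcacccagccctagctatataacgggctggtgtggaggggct
Nppb held 1 match, beginning at -105 from the start, Acta1 held 1 at -46, Ankrd1 held 2 at -210 and -123, and Nppa held 0. The hexamer on either strand occurred in 14.4% of 27025 promoters of this length, in 13.2% of the 9807 promoters of kept genes in 13 of the 61 genes called higher that have an entry (21.3%) and in 8 of the 23 called lower (34.8%). A match describes letters only.

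Genes outside that list included Hspb1 and Flnc. Hspb1, a small heat shock protein that protects the cytoskeleton, had 6931 units in the general wild type, against 1572 in the female and 1627 in the male heart-specific wild type (log2 difference 2.12 ± 0.035, limma adjusted p = 0.0115). Flnc, the muscle filamin, had 6591 units in the general wild type and 2355 and 2607 in the female and male heart-specific wild types, a difference of 1.41 ± 0.10 that did not pass limma (adjusted p = 0.0554). In the list of heat shock and chaperone genes, 20 were measured, Hspb1 was the only gene called higher and Hspb7 the only gene called lower, and the median was 0.03. Cryab, an abundant small heat shock protein of the heart, had 11052 units in the general control, against 5641 in the female and 9652 in the male control of the heart-specific line, which was within 2-fold of both.

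2 metabolic kinases belonged to the same group of genes high on the general array. Uck2, which phosphorylates uridine and cytidine in pyrimidine salvage, had 4812 units in the general wild type, against 1052 in the female and 898 in the male heart-specific wild type (log2 difference 2.31 ± 0.16, limma adjusted p = 0.0115), and all 3 of its probes were at least 2-fold higher. Nmrk2, a muscle kinase that makes an NAD precursor, had 1306 units in the general wild type and 256 and 151 in the female and male heart-specific wild types (log2 difference 2.73 ± 0.54, limma adjusted p = 0.0167), but of its 3 probes 1 did not share the direction. Tnfrsf12a, the receptor of the cytokine TWEAK, had 1081 units in the general control, against 366 in the female and 369 in the male control of the heart-specific line (limma adjusted p = 0.0341). Tnc, a matrix glycoprotein made anew in injured tissue, had 354 units in the general wild type, against 114 in the female and 113 in the male heart-specific wild type. It was at or below background on both heart-specific arrays, so it was at least 2.89-fold higher and was kept through the general array alone.

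**Figure D3:**
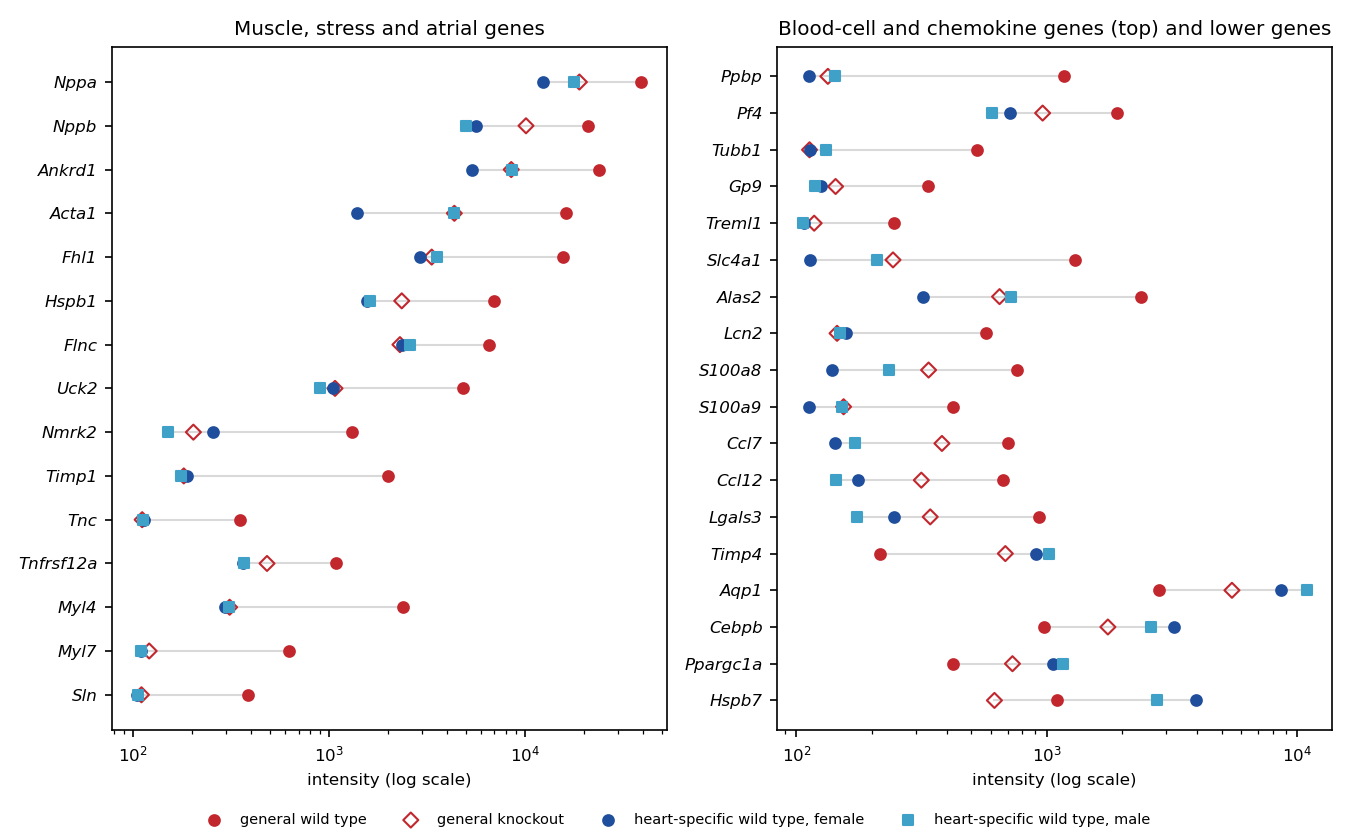
Intensity (log scale, arbitrary units) of called genes on the general wild-type array (filled red circle), the general knockout (open red diamond), and the female (dark blue circle) and male (light blue square) heart-specific wild types. At Timp1 the general wild type has 1995 units and the other 3 arrays lie between 176 and 188, and at Timp4, Aqp1, Cebpb and Ppargc1a the general wild type is the lowest of the 4 arrays.

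Some atrial markers were set apart on the general array. Of 12 listed genes, 10 were measured, 5 were called higher and 1 lower (beside 0.609% and 0.247% of all genes). In the list 5 were above and 4 below both heart-specific wild types, beside 30.8% and 37% of all genes. Of the 5 called higher, Myl7 and Sln were kept through the general array alone, and the other 8 measured genes had 3 called higher, 1 called lower and a median log2 difference of -0.15, against 0.46 with them. Myl4, the atrial essential myosin light chain, had 2385 units in the general wild type and 295 and 309 in the female and male heart-specific wild types (log2 difference 2.98 ± 0.049, limma adjusted p = 0.00407). Myl7, the atrial regulatory light chain, had 623 units in the general control, at least 5.1-fold higher against background. The female and male controls of the heart-specific line had 109.9 and 109.7 units. Sln, sarcolipin, the atrial inhibitor of the calcium pump, had 384 units in the general wild type, at least 3.14-fold higher against background. The female and male heart-specific wild types had 105 and 106 units. The heart-specific controls and the general knockout therefore showed Myl7 and Sln at or near background, and the general wild type did not. The female heart-specific knockout had 149 units of Myl7 and 222 of Sln, and the male one 107 and 101. Myl4 had 1078 and 552 units in the female and male heart-specific knockouts, against 311 in the general knockout. Part of the atrial signal was thus also seen outside the general wild type.

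Dkk3, a secreted atrial marker, had 315 units in the general wild type and 156 and 147 in the female and male heart-specific wild types, and Nppa belongs to this list as well as to the one above. Kcna5, the potassium channel subunit of the atrial ultrarapid current, went the other way with 178 units in the general control, against 382 in the female and 359 in the male control of the heart-specific line. The summed intensity of the 10 atrial genes was 44343 in the general wild type, against 14833 and 20175 in the female and male heart-specific wild types, and most of it was Nppa. The chambers taken are not stated, and in tissue RNA more cells of a type and more RNA per cell cannot be told apart. The part of the atrial signal in the higher Nppa was not tested.

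Several transcripts of blood platelets were higher on the general array. Of 13 platelet and megakaryocyte genes, 11 were measured and 6 were called higher, beside 0.609% of all genes. However, 5 of the 11, Gp5 and Treml1 among them, were kept through the general array alone and had to be higher. The other 6 were all above both heart-specific wild types and 4 of them were called higher. With no filter, the 12 members with a probe were all above both, beside 31.8% of all 19057 genes, with a median log2 difference of 1.01. The list's summed intensity was 6227 in the general wild type, against 2305 and 2462 in the female and male heart-specific wild types, while the general knockout had 2879. Ppbp, a platelet chemokine, had 1176 units in the general wild type, against 112 in the female and 143 in the male heart-specific wild type (limma adjusted p = 0.00407). Pf4, platelet factor 4, had 1913 units in the general wild type and 714 and 603 in the female and male heart-specific wild types (limma adjusted p = 0.0477). Tubb1, the tubulin of megakaryocytes and platelets, had 526 units in the general control, against 114 in the female and 131 in the male control of the heart-specific line (limma adjusted p = 0.0128). Ppbp and Tubb1 were above background on the male heart-specific array and not on the female one, so their folds over the female control are bounded by background.

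The general array was the highest at each of these genes. Gp9, part of the platelet receptor for von Willebrand factor, had 334 units in the general wild type, against 125 in the female and 119 in the male heart-specific wild type, above background on 1 of the 2 heart-specific arrays (limma adjusted p = 0.0477). Gp5, a further part of that receptor, and Treml1, a receptor of platelet granules, were higher by at least 1.83-fold and 2.01-fold, since both were below background on the heart-specific arrays. Alox12, the platelet lipoxygenase, had 920.4 units in the general wild type and 218 and 253 in the female and male heart-specific wild types (limma adjusted p = 0.0145). The part of blood left in the hearts was not tested. Itgb3, also in the platelet list, was not above background on any control. It had 116 units in the general wild type, against 109 and 108 in the female and male heart-specific wild types.

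Red cell genes were mixed. Of 12 measured genes, 3 were called higher (beside 0.609% of all genes). In the list 8 were above and 2 below both heart-specific wild types, beside 30.8% and 37% of all genes. The median was 0.38, or 0.19 over the 14 with a probe and no filter. Slc4a1, the band 3 anion exchanger, had 1296 units in the general control, against 114 in the female and 209 in the male control of the heart-specific line, with the female control below background (limma adjusted p = 0.0145). Alas2, the first enzyme of heme synthesis in red cell precursors, had 2390.2 units in the general wild type, against 321 in the female and 721 in the male heart-specific wild type (limma adjusted p = 0.102). The abundant alpha globin gene Hba-a1 had 31905 units in the general wild type and 34104 and 40528 in the female and male heart-specific wild types, with the general wild type the lowest. The summed intensity of the list, dominated by globins, was 115767 in the general wild type, against 96168 and 127018 in the female and male heart-specific wild types.

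Some genes of neutrophils and acute inflammation were higher. Of 21 listed genes 13 were measured and 4 were called higher (beside 0.609% of all genes). In the list 7 were above and 3 below both heart-specific wild types, beside 30.8% and 37% of all genes, and the median was 0.10. Of the 4, Ccl2 was kept through the general array alone. S100a8 and S100a9 encode the subunits of calprotectin, a neutrophil protein. S100a8 had 762 units in the general control, against 139 in the female and 235 in the male control of the heart-specific line (limma adjusted p = 0.0554). S100a9 had 420.5 units in the general wild type, against 112 in the female and 152 in the male heart-specific wild type, with the female control below background (limma adjusted p = 0.0508). Lcn2, an iron-binding acute phase protein, had 573 units in the general wild type and 158 and 149.7 in the female and male heart-specific wild types (limma adjusted p = 0.0145). Mpo, myeloperoxidase of neutrophil granules, had 108 units in the general control, against 119 in the female and 124 in the male control of the heart-specific line, at or near background on all 3 arrays.

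Chemokines that attract monocytes were higher too. Ccl7 had 699 units in the general wild type, against 143 in the female and 171 in the male heart-specific wild type (limma adjusted p = 0.0128), and Ccl12 had 668 units in the general wild type and 176 and 144 in the female and male heart-specific wild types (limma adjusted p = 0.0145). Ccl2, from the same gene cluster, had 233 units in the general control, against 107 in the female and 114 in the male control of the heart-specific line, at least 1.91-fold higher against background. Of 18 measured macrophage and monocyte genes, 1 was called higher, Lgals3 (galectin 3), with 927 units in the general wild type, against 246 in the female and 174 in the male heart-specific wild type (limma adjusted p = 0.0216), and the median was 0.28. In that list 11 genes were above both heart-specific wild types, beside 30.8% of all genes, and 2 below. The complement gene C1qb, above both, had 1421 units in the general wild type and 1023 and 1039.6 in the female and male heart-specific wild types. Csf1r, the receptor that macrophages need to survive, had 411 units in the general control, against 443 in the female and 605 in the male control of the heart-specific line. Cd163, a scavenger receptor of resident macrophages, had 212 units in the general wild type, against 290.5 in the female and 418 in the male heart-specific wild type. Csf1r and Cd163 were the 2 genes below both.

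**Figure D4:**
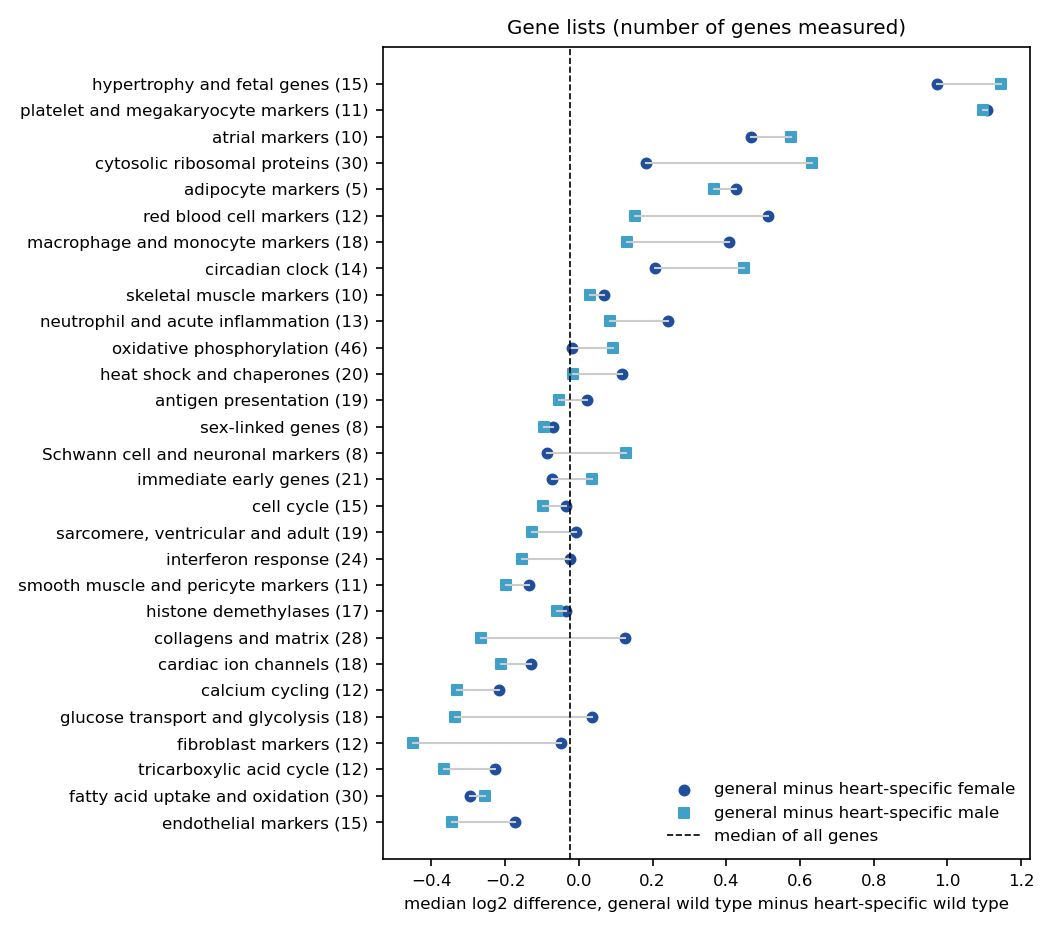
Median log2 difference of the general wild type minus the female (circle) and minus the male (square) heart-specific wild type for each gene list with at least 5 measured genes, whose number stands in brackets, and the median of all genes (dashed). Hypertrophy and fetal genes and platelet markers lie near 1 against both controls (5 of the 11 platelet genes were kept through the general array alone), while fatty acid, tricarboxylic acid cycle and endothelial genes lie below the dashed line against both.

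Genes of fatty acid use and of the tricarboxylic acid cycle were mostly a little lower. Of 30 measured genes of fatty acid uptake and oxidation, 21 were below and 3 above both heart-specific wild types, beside 37% and 30.8% of all genes, and the median was -0.30. Of 12 measured genes of the tricarboxylic acid cycle 0 were called, and 10 were below both heart-specific wild types, with a median of -0.29. Ppargc1a, a coactivator that drives mitochondrial gene expression, was the 1 member called lower, with 421 units in the general wild type and 1063 and 1166 in the female and male heart-specific wild types (log2 difference -1.40 ± 0.094, limma adjusted p = 0.0554). Pdk4, a kinase that inhibits the pyruvate dehydrogenase complex, had 2266 units in the general control. The female and male controls of the heart-specific line had 8479.8 and 4368 units, a difference of -1.43 ± 0.68 with the male control inside 2-fold.

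Smaller differences ran through the oxidation enzymes. Cpt2, which releases fatty acids inside the mitochondrion, had 7329 units in the general wild type, against 10642 in the female and 12345 in the male heart-specific wild type. Acadm, the medium-chain dehydrogenase, had 26302 units in the general wild type and 33749 and 39731 in the female and male heart-specific wild types. Suclg1, a subunit of succinyl-CoA ligase, had 15427 units in the general control, against 20286 in the female and 22943 in the male control of the heart-specific line. None of these 3 genes passed limma. Of 46 oxidative phosphorylation genes, 16 were above and 11 below both heart-specific wild types, beside 30.8% and 37% of all genes. Their median was 0.04.

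No measured calcium cycling or ion channel gene was above both heart-specific wild types. Of 12 calcium cycling genes, 6 were below both heart-specific wild types and 0 above, and of 18 ion channel genes 11 were below and 0 above, with medians of -0.19 and -0.16, beside 37% of all genes below both and 30.8% above. Kcna5, described above, was the only one called. Kcnip2, the subunit that sets the fast transient outward current, had 246 units in the general wild type, against 483 in the female and 445 in the male heart-specific wild type. Kcnd2, a pore subunit of that current, had 774 units in the general wild type and 1085 and 1798 in the female and male heart-specific wild types. Neither was 2-fold from both controls. Of 19 sarcomere genes 0 were called, 6 were above and 10 below both heart-specific wild types, and the median was -0.07. Ttn, titin, had 17028 units in the general control, against 22943 in the female and 29088 in the male control of the heart-specific line. Myom1, myomesin of the M band, had 7359.8 units in the general wild type, against 13236 in the female and 14099 in the male heart-specific wild type. In the other direction, Tnni3, cardiac troponin I, had 6195 units in the general wild type and 1893 and 4473 in the female and male heart-specific wild types, and Csrp3, the muscle LIM protein, had 43741 units in the general control, against 33447 in the female and 26302 in the male control of the heart-specific line.

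Of 28 measured collagen and matrix genes, 2 were called higher, Timp1 and Tnc, and 1 lower, Timp4, beside 0.609% and 0.247% of all genes. Tnc was kept through the general array alone. In the list 10 were above and 10 below both heart-specific wild types, beside 30.8% and 37% of all genes. Timp4, the heart-enriched member of the metalloproteinase inhibitor family, had 215 units in the general wild type, against 904 in the female and 1024 in the male heart-specific wild type (log2 difference -2.16 ± 0.13, limma adjusted p = 0.0115). Timp1 and Timp4 thus lay on opposite sides. Of their relatives within 2-fold, Timp2 had 1415 units in the general wild type and 1956 and 1701 in the female and male heart-specific wild types, and Timp3 had 1852 units in the general control, against 2903 in the female and 2228 in the male control of the heart-specific line. Aqp1, the water channel of capillary endothelium and red cells, had 2807 units in the general wild type, against 8621 in the female and 10945 in the male heart-specific wild type (log2 difference -1.79 ± 0.24, limma adjusted p = 0.0299), and all 3 of its probes were at least 2-fold lower. Of 15 measured endothelial markers, 9 were below both heart-specific wild types and 3 above, beside 37% and 30.8% of all genes. In this list 0 were called, and the median was -0.31. Cldn5, a tight junction protein of endothelium, had 338 units in the general wild type and 644 and 756 in the female and male heart-specific wild types, just inside 2-fold of the female control.

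Cebpb, a transcription factor of the acute phase and of fat, had 971 units in the general control, against 3217 in the female and 2618 in the male control of the heart-specific line (log2 difference -1.58 ± 0.21, limma adjusted p = 0.0477). Tmem82, a membrane protein, had 257 units in the general wild type, against 817 in the female and 886 in the male heart-specific wild type (limma adjusted p = 0.0221). Notch4, an endothelial Notch receptor, had 577 units in the general wild type and 1155 and 1387 in the female and male heart-specific wild types (limma adjusted p = 0.141). Spon2, a secreted matrix protein, had 357 units in the general control, against 902 in the female and 1359.9 in the male control of the heart-specific line. Car4, a membrane-bound carbonic anhydrase, had 329 units in the general wild type, against 997 in the female and 789.8 in the male heart-specific wild type. Both were lowest in the general wild type among the 3 controls, and at Spon2 the general knockout was as low, with 362 units. With Timp4 and Aqp1, Cebpb and Tmem82 were the 4 genes lower by limma. Only 2 of the 30 genes called lower were at least 2-fold below all 5 other arrays of the series, against 31 of the 74 called higher that were at least 2-fold above them.

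Cish, a suppressor of cytokine signalling through STAT5, had 2407 units in the general wild type and 5728 and 6957 in the female and male heart-specific wild types. Mcf2l had 371 units in the general control, against 1204 in the female and 924 in the male control of the heart-specific line. Whrn, the scaffold protein whirlin, had 545 units in the general wild type, against 1333 in the female and 1380.4 in the male heart-specific wild type. None of these 3 genes called lower passed limma. Gbp2b, an interferon-induced GTPase, had 105 units in the general wild type, below background and at least 1.9994-fold lower. The female and male heart-specific wild types had 215 and 279 units. The general knockout had 103 units, but the female and male heart-specific knockouts had 245 and 108, so this gene does not divide the lines. In the other direction, Serpina3n, an acute phase protease inhibitor, had 914 units in the general control, against 188 in the female and 207 in the male control of the heart-specific line (limma adjusted p = 0.0115). Apol11b, of the apolipoprotein L family, had 784 units in the general wild type, against 113 in the female and 139 in the male heart-specific wild type, with the female control below background (limma adjusted p = 0.00715). Klhl21, an adaptor of a ubiquitin ligase, had 1144 units in the general wild type and 1253 and 1234 in the female and male heart-specific wild types, within 2-fold of both.

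Cytosolic ribosomal protein genes showed how 1 heart-specific control can set a list's value. Of 30 measured genes, 20 were above both heart-specific wild types and 1 below, beside 30.8% and 37% of all genes, with 0 called. The median log2 difference was 0.18 from the female and 0.63 from the male control, and the female minus the male control gave 0.52. Rpl12, of the large subunit, had 10141 units in the general control, against 7350.0 in the female and 3969 in the male control of the heart-specific line. Rps16, of the small subunit, had 9969 units in the general wild type, against 7251 in the female and 4003 in the male heart-specific wild type. At both genes the male heart-specific array was the low one. Rps3a1, a ribosomal protein gene outside the list, was called higher, with 3334 and 2433 units in the general wild type and knockout, against 1287 and 1192 in the female and male heart-specific wild types (limma adjusted p = 0.0508).

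Some differences were shared by the general knockout. Of the 74 genes called higher, 11 were also at least 2-fold higher in the general knockout than in both heart-specific wild types, and of the 30 called lower 6 were also lower there. Fgfr1op2, named as a fusion partner of the receptor FGFR1, had 1729 and 1547 units in the general wild type and knockout, against 197 and 248 in the female and male heart-specific wild types (limma adjusted p = 0.00538). Tm7sf3, a membrane protein gene and the next kept gene on the chromosome, had 335 and 276 units in the general wild type and knockout. The female and male heart-specific wild types had 107 and 104 units. The female heart-specific knockout lay between the lines at both genes, with 886 and 181 units.

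Psmd8, a proteasome subunit, had 1720.2 and 1336 units in the general wild type and knockout, against 585 and 605 in the female and male heart-specific wild types (limma adjusted p = 0.0367). All 4 heart-specific arrays lay between 585 and 641 units. Wdfy1, an endosomal protein gene, was lower, with 148 and 167 units in the general wild type and knockout, against 363 and 364 in the female and male heart-specific wild types, though its second probe did not share the direction. In a fit on all 6 arrays with line and genotype as terms, Psmd8 and Wdfy1 had the smallest adjusted p, 0.0668, and limma called 0 genes, with 1294 at an unadjusted p under 0.05.

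Ptgds, which makes prostaglandin D, had 2284 and 3167 units in the general wild type and knockout, against 803 and 493 in the female and male heart-specific wild types. Hbb-b2, a beta globin gene with near-identical copies that its probe may also read, had 3599.7 and 2946 units in the general wild type and knockout, against 965 and 979 in the heart-specific wild types (limma adjusted p = 0.0145). Hspb7, a cardiac small heat shock protein, was lower with 1098 and 618 units in the general wild type and knockout, against 3947 and 2769.8 in the female and male heart-specific wild types. The heart-specific knockouts were also low at 430.3 and 564 units, so this gene does not divide the lines.

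Some clock genes were placed alike in both general hearts. Dbp, a clock-driven transcription factor, had 4284 and 3213 units in the general wild type and knockout, against 1452 and 546 in the female and male heart-specific wild types (limma adjusted p = 0.183). Arntl (Bmal1), the clock's activator, had 202 and 169 units in the general wild type and knockout, against 306 and 609 in the female and male heart-specific wild types. Nr1d1, a repressor of Arntl, had 250.3 and 239.5 units in the general wild type and knockout, against 167 and 144 in the heart-specific wild types. Of 14 measured clock genes Dbp was the only gene called. In that list 8 were above and 5 below both heart-specific wild types, beside 30.8% and 37% of all genes. The heart-specific controls differed from each other at Dbp and Arntl, and the sources used here give no time of day for the dissections.

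**Figure D5:**
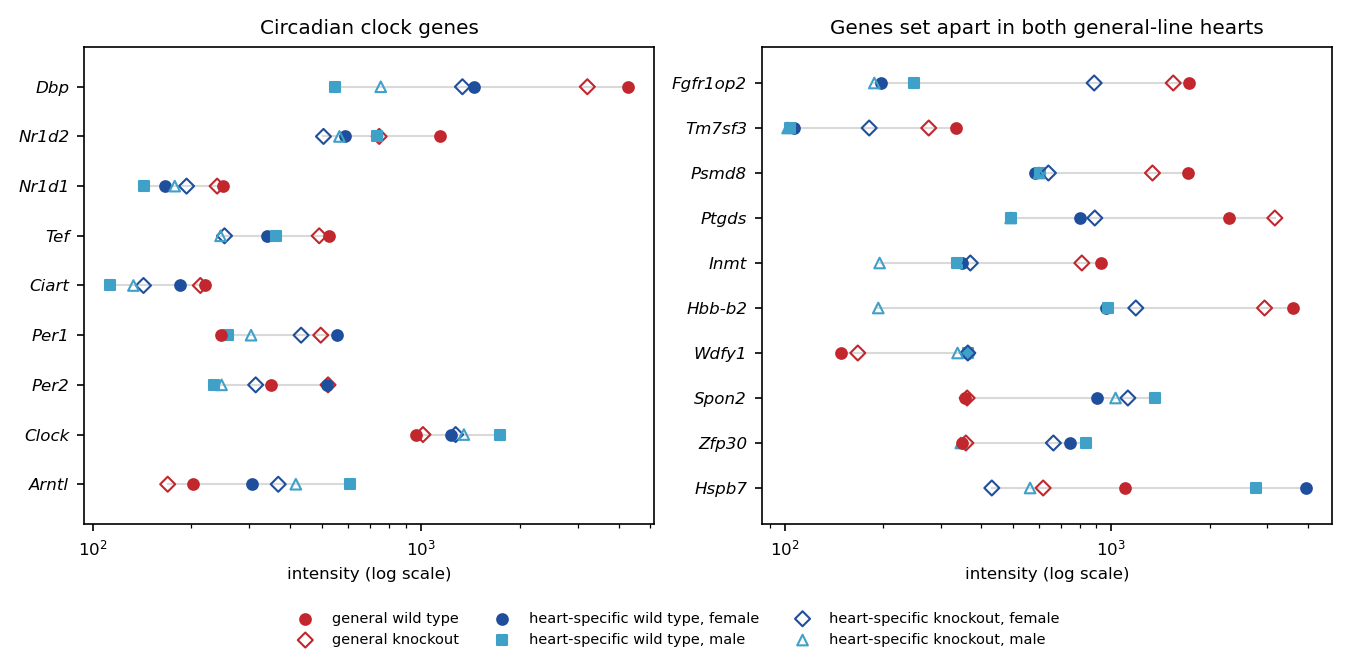
Intensity (log scale, arbitrary units) on all 6 arrays of clock genes (left) and of genes at which both general hearts were set apart from the heart-specific wild types (right). Both general arrays (red) have more Dbp and less Arntl than all 4 heart-specific arrays (blue), and at Psmd8 the general wild type and knockout have 1720.2 and 1336 units, against 585 to 641 on the 4 heart-specific arrays.

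Sex-linked genes placed the general control beside the male one. Xist, the RNA of the inactive X chromosome, had 101 units in the general wild type and 1638 and 108 in the female and male heart-specific wild types. Eif2s3y, a Y-linked translation factor gene, had 1116 units in the general control, against 97.8 in the female and 1830.5 in the male control of the heart-specific line. Kdm5d, a Y-linked histone demethylase gene, had 198 units in the general wild type, against 114 in the female and 208 in the male heart-specific wild type. Of 8 measured sex-linked genes 0 were at least 2-fold from both heart-specific wild types, so none of them is among the called genes. The heart-specific controls are a female and a male, so a gene that differs by sex alone lies near either control. The 2-fold rule cannot call such a gene, and no conclusion about the lines is drawn from this 0.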

How the data were processed

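Total RNA of 6 adult mouse hearts was extracted with Trizol and column cleaned, and biotin-labelled cRNA was hybridised to Illumina bead arrays, per the labels' protocols. GenomeStudio produced the intensities that the authors deposited, per the submitters' processing notes, while the sources used here give no version, background option or normalization. Their sorted values differed by at most 2.32% between arrays, so they were taken as already quantile-normalized, and they were used on the log2 scale without further normalization. A second deposited table holds 12 columns of per-sample values headed by numbers that match no label, and it was not used here.

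Arrays were grouped by their titles. Probes were named through the platform annotation (1 gene for 34885 probes, several for 18, none for 10378), of which 34807 matched RefSeq genes of GRCm38.p6. That annotation gave symbols, gene order and promoter sequences. Of the 12160 kept genes, 4683 had several kept probes, which can disagree. Where every dimmer array was at or below background, only a lower bound of the fold is printed. The comparison of 1 array with 2 is a description (at least 2-fold from each), with limma 3.58.1 in R 4.3.3 (lmFit, eBayes, Benjamini-Hochberg over all genes) beside it. The fit was tested on simulated data. Alternatives were another filter, no filter, the mean of a gene's probes, normexp correction at offsets of 16 and 50, quantile normalization over the 3 controls, other fold limits, each heart-specific control left out, and limma on every probe or on all 6 arrays.

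The arrays and the gene lists were chosen with earlier results of these data known. Genes were named by a rule: the 20 brightest, the 14 genes per direction that differed most while above background on all 3 controls, 6 per direction below it on the dimmer side, a few genes of interest, sex-linked genes and up to 5 members per list; not every list member that the rule allows is named. Predicted gene models are part of the counts but go unnamed. Genes named beyond this rule were chosen after their values were seen: Ankrd1, Flnc, Tnfrsf12a, Dkk3, Gp5, Itgb3, Alox12, Hba-a1, Mpo, Csf1r, Timp2, Timp3, Notch4, Acadm, Xirp2, Acta2, Rps16, Rps3a1, Tm7sf3, Psmd8, Ptgds and those of the other observations.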

Additional observations from a re-analysis of the deposited data

How the results depend on the processing

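The general control has no replicate, so nothing here measures its own spread, and bead arrays with background left in compress the folds of dim genes. All 74 genes called higher and all 30 called lower were called again without a filter, with quantile normalization over the 3 controls and with either normexp correction. These alternatives could hardly lose a call. Dropping the filter removes no kept gene, the values were already taken as quantile-normalized, and normexp correction widens folds. Of these genes, 71 and 30 were called with a filter of 2 of 6 arrays and 62 and 17 with the mean of a gene's probes. Under that mean 17 genes were lower in all. Normexp correction called 135 higher and 77 lower at an offset of 16 and 46 lower at an offset of 50. Limits of 1.5-fold and 3-fold gave 244 and 29 higher and 185 and 4 lower. At least 2-fold past all 5 other arrays, an alternative chosen after seeing the data, left 31 higher and 2 lower. Leaving out a heart-specific control gave 132 to 210 higher and 73 to 92 lower, since only 1 control then sets the call: 210 and 92 without the female, 132 and 73 without the male. Limma called 38 genes, 5 with a filter of 2 of 6 arrays, 0 without a filter (smallest adjusted p 0.154), 115 and 139 with normexp at offsets of 16 and 50, and 0 for the line over all 6 arrays (smallest adjusted p 0.0668). Its smallest adjusted p ran from 1.29e-09 to 0.154 over the alternatives. It could not be fitted without a heart-specific control, as 0 residual degrees of freedom remain. Of the 20 brightest genes, 16 to 20 were kept. The cause of these changes was not tested. Of the values of single genes under the alternatives, 187 moved by more than the spread between the heart-specific controls and 801 did not. No called gene changed sign. Leaving out a heart-specific control could neither move a value past that spread nor turn the sign of a called gene. Those comparisons were therefore among the unmoved by construction, and the tally is no measure of robustness. Of the list medians, 37 moved and 149 did not. Without a filter the median became 0.75 for hypertrophy and fetal genes and -0.01 for atrial markers. No paired analysis was possible because the general line has 1 control, whose title carries no replicate number.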

Other observations

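The following 3 genes called lower stood in none of the gene lists and were picked after their values were seen. Tsc22d3, which encodes the glucocorticoid-induced leucine zipper protein, had 1415 units in the general wild type and 3396 and 3629 in the female and male heart-specific wild types (limma adjusted p = 0.0712). Zbtb16, a zinc finger transcription factor, had 126 units in the general control, against 338 in the female and 284 in the male control of the heart-specific line. Errfi1, an inhibitor of the EGF receptor, had 615 units in the general wild type, against 2858 in the female and 1620.3 in the male heart-specific wild type. None of these genes passed limma.

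Few immune and chromatin genes were called, as was the case over all genes. Of 24 interferon response genes 1 was called higher, beside 0.609% of all genes. This gene, Ifi27l2a, had 3039 units in the general wild type and 949 and 859 in the female and male heart-specific wild types. In the list 12 were below and 7 above both heart-specific wild types, beside 37% and 30.8% of all genes. Of 19 antigen presentation genes, 21 immediate early genes, 15 cell cycle genes and 17 histone demethylase genes, 0 were called in each list. Only 0.609% of all genes were called higher and 0.247% lower, so 0 in lists of this size sets none of them apart. A gene not called can still be 2-fold from 1 control. Kdm4b, a relative of Kdm4a, had 668 units in the general control, against 884 in the female and 786 in the male control of the heart-specific line.

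Along the chromosomes, 8 pairs of called genes, 14 genes in all, had no other kept gene between them. Genes that were not kept may lie between, and such pairs were not counted for other sets of genes. The pairs include Nppb with Nppa, Ppbp with Pf4, Ccl2 with Ccl7, the S100 genes S100a4, S100a6, S100a8 and S100a9, and Fgfr1op2 with Tm7sf3. Inmt, a methyltransferase gene, and Aqp1 are such a pair on chromosome 6 with opposite calls. Inmt had 928 units in the general wild type, against 349.9 in the female and 336 in the male heart-specific wild type (limma adjusted p = 0.0489), and the general knockout had 812 units. At Aqp1 the general knockout had 5497 units and lay between the controls.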
